A study of Mus musculus with 42 samples.

Results

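β-catenin, the nuclear effector of WNT signalling, was found at 3392 genomic regions where neither SOX2 nor LEF1 had a peak among the best of its own lists. They were chosen from the ChIP-seq peak calls of wild-type (WT) cells alone. In each of 9 WT peak lists (3 for β-catenin, 3 for SOX2 and 3 for LEF1) the 20000 best peaks were kept, ranked by −log10 q value (ties by −log10 p value, then fold enrichment). Overlapping peaks, sharing 1 bp or more, were joined into 139863 regions. A region was kept when at least 2 of 3 β-catenin lists had a peak in it and 0 of 3 SOX2 and 0 of 3 LEF1 lists had one. These 3392 lone β-catenin sites were 35.0% of the 9687 regions called in at least 2 of 3 WT β-catenin lists, here called consensus regions. The others were 2097 sites with SOX2 and LEF1, 2749 with SOX2 lacking LEF1 and 1449 with LEF1 lacking SOX2. The WT calls of the 3 factors are therefore a description of how the sites were selected and were not tested.

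All cells were made in vitro from HM1 mouse embryonic stem cells of 129 background and collected at 72 h. Every culture received bFGF and LGK974, a porcupine inhibitor that blocks WNT secretion. CHIR99021 (CHIR), an inhibitor of GSK3 that stabilizes β-catenin inside the cell, was added for the last day except in the noCHIR group. The paper names the cells given CHIR caudal epiblast-like cells and those without it epiblast-like cells. Cells were fixed with a protein crosslinker (DSG) before formaldehyde, which also retains proteins that reach DNA through others. The genotypes were WT, CdxKO (Cdx1/2/4-/-) and T/BraKO (T/Bra-/-). The mutants were made in the HM1 TetON line that also served as WT, and how many clones stood for each genotype is not stated in the labels or methods, so genotype and cell line cannot be told apart. β-catenin, SOX2 and LEF1 were each profiled in 3 biological replicates of WT, CdxKO and T/BraKO with CHIR, and SOX2 also in WT noCHIR, which made 10 groups and 30 lists. Peak lists hold no expression values, so the deletions and the cell identity could not be checked against RNA or marker genes here.

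β-catenin has no DNA-binding domain of its own. On WNT stimulation it reaches chromatin through the TCF/LEF family, of which LEF1 is one member beside TCF7, TCF7L1 and TCF7L2. In the posterior epiblast, WNT signalling turns on the T-box factor T (also called Brachyury) and the CDX homeodomain factors, which take cells toward mesoderm and the trunk, while SOX2 marks pluripotent and neural cells. A TCF/LEF protein reads letters such as CTTTGAA or CTTTGAT, a CDX protein letters such as TAATAAA, and a T-box protein letters such as AGGTGTGA.

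Motif letters at sites on which the comparisons below turn are shown first. The sequences are from the RefSeq assembly of mouse GRCm38.p6, which has the coordinates of mm10, and each is read 5′ to 3′ on the strand given. Each of these sites was named by the nearest protein-coding gene. The first set holds TCF/LEF letters, in capitals, near the summits of sites at WNT and primitive streak genes and at a top site near Gsk3b.
Wnt11 promoter, chr7:98835035-98835094, − strand: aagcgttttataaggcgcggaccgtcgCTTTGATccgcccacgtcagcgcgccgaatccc
Mixl1 promoter, chr1:180697064-180697123, − strand: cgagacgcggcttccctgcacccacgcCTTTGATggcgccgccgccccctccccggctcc
Wnt3, chr11:103772759-103772818, − strand: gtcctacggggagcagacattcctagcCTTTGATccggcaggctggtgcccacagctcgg
Gsk3b, chr16:38037967-38038026, + strand: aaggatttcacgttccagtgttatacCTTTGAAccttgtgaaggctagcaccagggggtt

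The second set holds CDX letters at sites called in WT that had no β-catenin peak among the best of any CdxKO list. At each site 1 CDX match is in capitals, and any further match is left in lower case. The Pik3r1 site held 4 CDX matches and 1 TCF/LEF match within 100 bp of its summit. The Hoxc8 site lies in an annotated untranslated region, so only 30 bases of it are shown.
Hoxc4 intron, chr15:103024294-103024353, + strand: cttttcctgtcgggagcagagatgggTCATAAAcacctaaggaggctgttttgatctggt
Hoxc8, chr15:102992901-102992930, − strand: atttatctgctaCCATAAAacgaaacttca
Pik3r1, chr13:102065319-102065378, + strand: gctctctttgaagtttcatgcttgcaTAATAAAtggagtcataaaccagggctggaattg
Vps13b intron, chr15:35538604-35538663, − strand: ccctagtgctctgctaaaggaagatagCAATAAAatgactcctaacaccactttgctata
Rspo3, chr10:29825832-29825891, + strand: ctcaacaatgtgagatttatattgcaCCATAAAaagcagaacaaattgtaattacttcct

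The third set holds T-box letters, in capitals, at sites called in WT that had no β-catenin peak among the best of any T/BraKO list. The Mesp2 window touches an annotated untranslated region and is again shown as 30 bases.
Mesp2 promoter, chr7:79810847-79810876, − strand: atctggactaaAGGTGTGAggtggtcccct
Hs6st2 intron, chrX:51651026-51651085, − strand: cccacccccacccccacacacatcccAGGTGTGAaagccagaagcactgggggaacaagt
Shb, chr4:45657454-45657513, − strand: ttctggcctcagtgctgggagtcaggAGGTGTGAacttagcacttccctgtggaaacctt
Gm17571 intron, chr9:13445036-13445095, − strand: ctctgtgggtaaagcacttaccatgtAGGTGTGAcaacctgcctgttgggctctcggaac

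The lone sites were the narrower and weaker β-catenin regions of the WT lists. The median width of their joined regions was 360 bp. It was 790 bp at sites with SOX2 and LEF1, 556 bp at sites with SOX2 lacking LEF1 and 520 bp at sites with LEF1 lacking SOX2. Their median mean rank over the 3 WT β-catenin lists was 11106, against 2001, 9267 and 5803 in the same order, where rank 1 is the best peak and a list without a peak counted as the rank after the last. Only 1127 of them (33.2%) were called in 3 of 3 WT β-catenin lists. The median fold enrichment of their peaks over the local background was 6.69, 7.82 and 10.4 in the 3 WT lists. In the other classes a joined region also takes in the SOX2 or LEF1 peaks, so the difference in width is in part set by the rule. A narrower region also has less room for a SOX2 or LEF1 peak to overlap it. The part of width in the selection was not tested.

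Most lone sites lay away from gene starts. Of the 3392 sites, 605 (17.8%, 95% Wilson interval 16.6 to 19.2) had their summit within 1000 bp of an annotated start, 1239 (36.5%) lay in introns and 1456 (42.9%) between genes. The promoter share was 13.3% at sites with SOX2 and LEF1, 17.8% at sites with SOX2 lacking LEF1 and 13.4% at sites with LEF1 lacking SOX2. The median distance to the nearest protein-coding start was 28201 bp. Mean GC content was 51.3%, and the summit lay in a repeat of the soft-masked genome in 582 sites (17.2%).

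The absence of SOX2 and LEF1 held for the 20000 best peaks, not for the whole lists. With all deposited peaks, 342 sites (10.1%) had no SOX2 or LEF1 peak in any of the 6 WT lists. They are the same 342 that make up 3.53% of all consensus regions, since every other class was defined by having a SOX2 or LEF1 peak. SOX2 was absent from all 3 full WT lists at 973 sites and LEF1 at 1082. Where SOX2 did have a peak in a full WT list, its median rank was 290953, 117218 and 77608 in the 3 replicates, with a median fold enrichment of 5.29, 4.78 and 4.79. The full lists held 205833 to 1008922 SOX2 peaks in WT, so a weak peak somewhere in them was common. Of the 342 sites with none, 34.5% held TCF/LEF letters, against 42.6% of the other 3050.

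Examples of the 342 sites were Syt13, Sgk1 and Bcl2. At the promoter of Syt13, which encodes a synaptotagmin, the fold enrichment of β-catenin was 16.0, 12.4 and 15.4 in WT, 11.7, 14.2 and 10.4 in CdxKO and 26.6, 18.9 and 21.5 in T/BraKO. Each of the 9 lists called it. In an intron of Bcl2, an inhibitor of apoptosis, the values were 12.2, 9.97 and 18.3 in WT and 10.9, 11.2 and 13.3 in CdxKO, and no T/BraKO list held a peak. At a non-coding exon 135354 bp from the start of Sgk1, a kinase of the AGC family, WT had 16.5, 9.55 and 17.4 and CdxKO 15.7, 12.6 and 15.6, while T/BraKO had 10.3, no peak and 4.50. The Sgk1 site was called among the 20000 best in all 6 WT and CdxKO lists and in 2 of 3 T/BraKO lists.

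At the threshold itself, the best-ranked site called in exactly 2 of 3 WT β-catenin lists was in an intron of Frmd4a, 114992 bp from its start, with folds of 20.9, 24.3 and 7.06. Just outside were a region in an intron near Sult2a2 (no peak, 20.8 and 27.6), kept out by 1 SOX2 list, and one in an intron of Inpp4a (3.06, 13.1 and 28.5), kept out by 1 LEF1 list. Their β-catenin values lay in the range of the sites that were kept.

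TCF/LEF letters were the most frequent of the 23 motifs searched, on both strands and within 100 bp of the WT summit. CTTTGAA or CTTTGAT stood at 1418 of 3392 lone sites (41.8%, interval 40.2 to 43.5), against 8.11% of the same windows moved by 1000 bp and 42.8% of all consensus regions. The share was 51.5% at sites with SOX2 and LEF1, 23.8% at sites with SOX2 lacking LEF1 and 68.9% at sites with LEF1 lacking SOX2. The nearest TCF/LEF match lay at a median of 27 bp from the summit, and 227 sites held at least 2. Promoter sites held them in 23.6% of cases, intron sites in 44.6% and sites between genes in 47.0%.

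SOX letters (CCATTGT or CCTTTGT) were at 8.84% of the lone sites and 6.88% of moved windows, whereas 20.1% of sites with SOX2 and LEF1 and 21.3% of sites with SOX2 lacking LEF1 held them, beside 14.4% of all consensus regions. ZIC letters (CAGCAGG) were at 711 of the 3392 lone sites and 5.25% of moved windows (22.5% of all consensus regions), and the E-box CAGGTG of SNAI and ZEB repressors at 22.7% and 13.2% (21.1%). CDX letters (CAATAAA or CCATAAA or TAATAAA or TCATAAA) were at 442 sites (13.0%), below the 16.7% of moved windows (13.7% of all consensus regions). T-box letters were at 85 sites (2.51%), against 0.811% of moved windows and 1.93% of all consensus regions. AP-1 letters (TGANTCA) were at 8.20% and 5.53% (7.18%), and the OCT octamer ATGCAAAT at 3.51% and 1.37% (4.33%). SP/KLF letters (GGGGCGGGG) were at 4.63% and 0.914% (4.39%). Their ratio to moved windows was 5.06, near the 5.16 of TCF/LEF letters. None of the TCF/LEF, SOX, CDX and T-box letters was present at 1551 sites (45.7%). The T-box and E-box letters share AGGTG, and the ZIC and E-box letters can overlap, so these counts are not independent. A match is a description of letters and not of a bound factor.

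**Figure D1:**
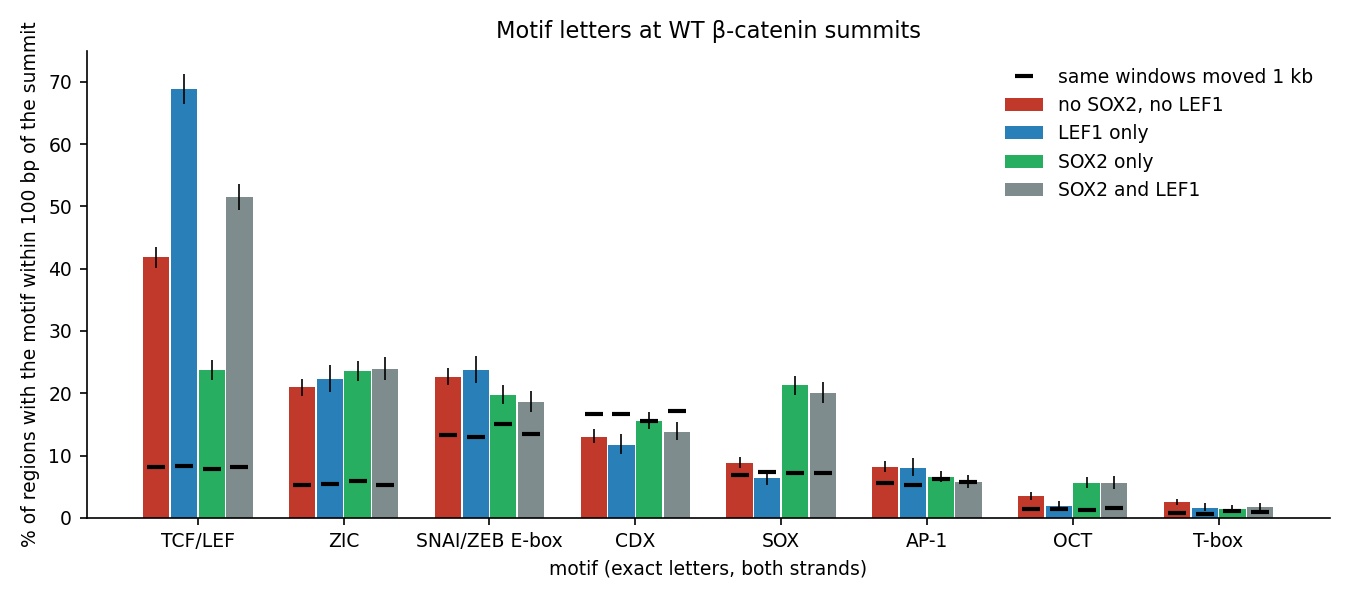
Percentage of WT β-catenin regions (y axis) that held each motif within 100 bp of the summit (x axis), by class of site, with 95% Wilson intervals, beside the same windows moved by 1000 bp. TCF/LEF letters stood at 41.8% of the lone sites and 8.11% of the moved windows, while SOX letters stood at 8.84% and 6.88%.

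In the mutants, about as many lone sites kept a β-catenin peak in one genotype as in the other. Among the 20000 best peaks, 55.2%, 52.0% and 51.5% of the lone sites were called in the 3 CdxKO lists (mean 52.9% ± 2.01, SD, n = 3) and 57.8%, 50.3% and 59.7% in the 3 T/BraKO lists (55.9% ± 4.96). The groups overlapped, and the difference of −3.03 points had an exact two-sided permutation p of 0.4 (0.5 after Benjamini-Hochberg adjustment over 5 tests), where 3 against 3 lists cannot give less than 0.1. With all deposited peaks the means were 68.1% ± 5.99 and 70.1% ± 6.28. WT is not set against the mutants by a test because its calls chose the sites. Fewer cells with β-catenin at a site and less of it per cell cannot be told apart in these bulk libraries.

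Site by site, 1814 lone sites (53.5%) were called in at least 2 of 3 CdxKO lists, where 68.1% of all consensus regions were, and 1943 (57.3%) in at least 2 of 3 T/BraKO lists, where 73.6% were. A total of 600 sites (17.7%) were called in all 6 mutant lists, against 36.2% of consensus regions. At the other end, 322 sites (9.49%) were called in 0 of 6 mutant lists, against 4.69%, and 107 of the lone sites (3.15%) had no peak in any full mutant list either, against 1.30% of consensus regions. Both mutants called 1249 sites (36.8%) in at least 2 of 3 lists, against 55.9% of consensus regions. Loss in CdxKO alone, meaning 0 of 3 CdxKO and at least 2 of 3 T/BraKO lists, was seen at 337 sites (9.94%, beside 8.37% of consensus regions). Loss in T/BraKO alone was seen at 336 sites (9.91%, beside 6.64%). TCF/LEF letters were at 55.3% of the 600 sites called in all 6 lists (interval 51.3 to 59.3) and at 87 of the 322 called in none (22.5% to 32.1%). Over all consensus regions the shares were 54.0% and 24.0%. Of the 454 consensus regions called in none, 322 were the lone sites themselves, so these shares are no separate comparison.

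Lone sites were called less often in the mutants than the other classes of WT β-catenin region, measured in the same 6 lists. The difference from sites with SOX2 and LEF1 was −33.9 ± 2.48 points (SD, n = 6 lists), from sites with LEF1 lacking SOX2 −21.4 ± 2.76 points and from sites with SOX2 lacking LEF1 −15.1 ± 7.39 points. All 6 lists were negative in each case, and the exact sign-flip permutation p was 0.0312 for each, the smallest that 6 lists allow (0.0312 after adjustment over 3 classes). In the single lists the difference from sites with SOX2 lacking LEF1 was −10.8, −16.4 and −3.10 points in CdxKO and −21.4, −23.3 and −15.6 in T/BraKO. The 6 lists came from 2 mutant lines, so they measure spread between lists and not between lines. A call needed 1 bp of overlap with the joined region, and lone sites, as the narrower regions, gave it less room.

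The lone sites were also the lower ranked in WT, and retention followed rank. When all regions were divided into 4 bins at the quartiles of the lone sites' mean WT rank, 76.4% of the 848 lone sites in the best bin were called in a mutant list on average, then 59.7%, 46.0% and 35.4% in the lowest. TCF/LEF letters fell with rank too, from 51.1% of the sites in the best bin to 46.0%, 36.6% and 33.6%. Within the bins the lone sites remained below sites with SOX2 and LEF1 by 14.0 to 19.0 points, with an adjusted exact permutation p of 0.0469 in every bin. They remained below sites with LEF1 lacking SOX2 by 8.90 to 12.8 points with the same p. The difference from sites with SOX2 lacking LEF1 shrank to between −7.57 and −10.2 points, with an adjusted exact permutation p of 0.0625 to 0.0938, so that this call did not hold within the bins. The division by rank was added after seeing the data. Within the middle range of the lone sites' width the difference from sites with SOX2 lacking LEF1 was −12.1 points (adjusted exact permutation p = 0.0625). Rank was not matched inside a bin. The best bin ran to rank 8137 and held 1717 of the 2097 sites with SOX2 and LEF1, a class with a median rank of 2001. Inside the rank bins the classes also still differed in width. In the best bin the median width was 462.5 bp at lone sites and 838 bp at sites with SOX2 and LEF1. In the lowest bin it was 304 and 577.5 bp. The part of width, and of rank inside a bin, in these differences was not tested.

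**Figure D2:**
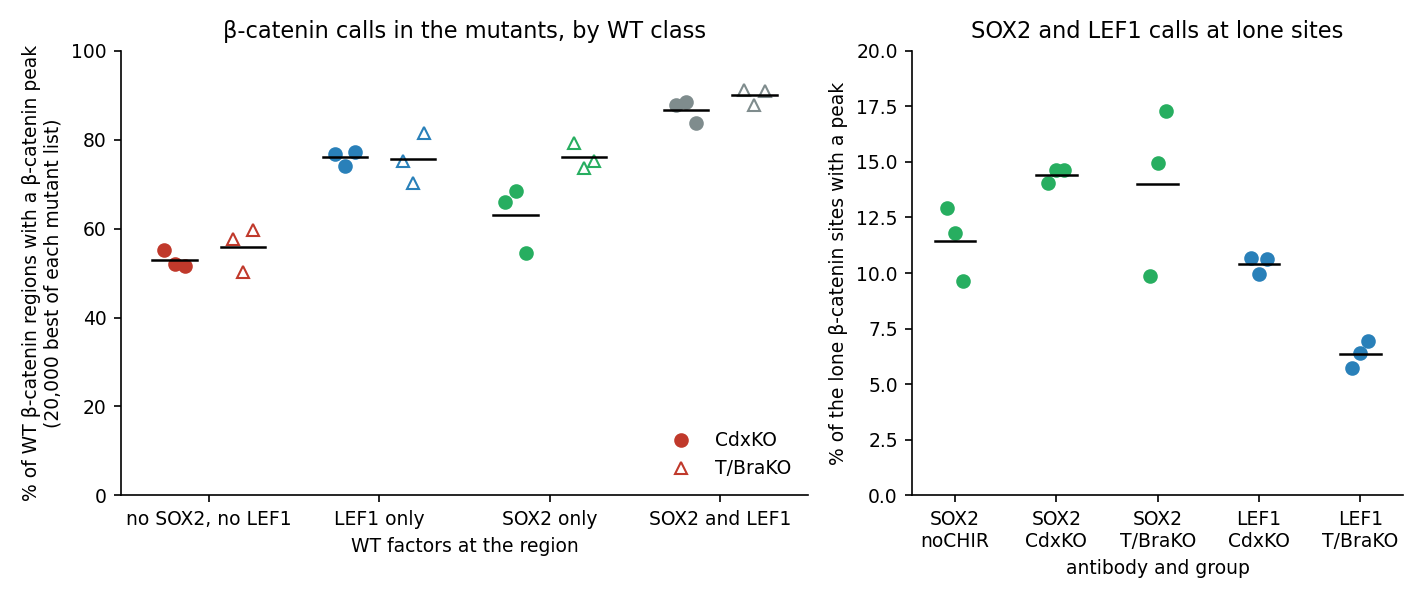
Left, percentage of WT β-catenin regions with a β-catenin peak among the 20000 best (y axis) by class of site (x axis), 1 point per mutant list and bars at group means. Right, percentage of lone sites with a SOX2 or LEF1 peak in the lists that did not choose them. The lone sites lay between 50.3% and 59.7% in the 6 mutant β-catenin lists, below every other class in each list.

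**Figure D3:**
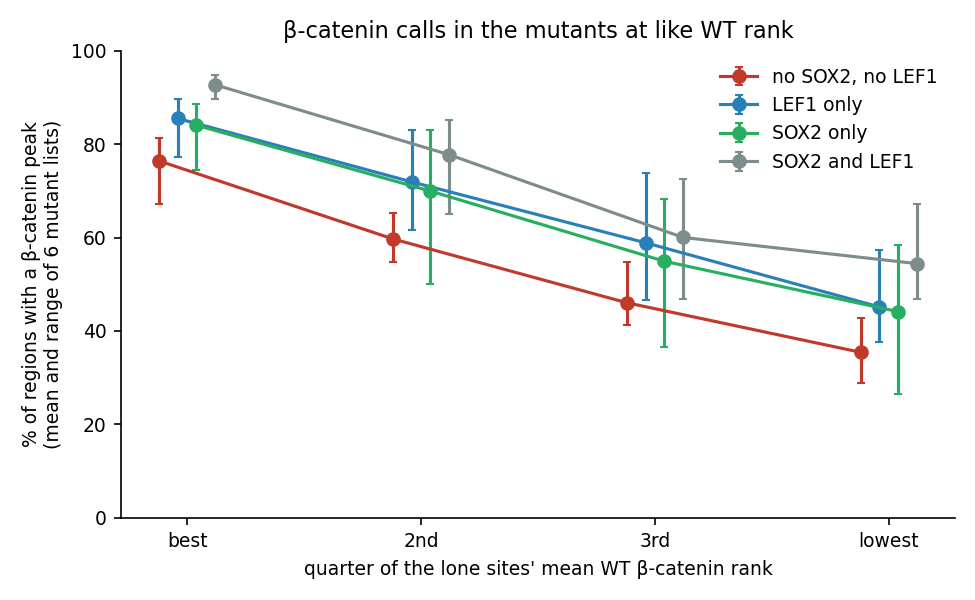
Percentage of regions with a β-catenin peak in the mutants (y axis; mean and range of 6 lists) against the bin of the lone sites' mean WT rank (x axis), by class. The lone sites fell from 76.4% in the best bin to 35.4% in the lowest.

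Where a mutant list did have a β-catenin peak in a lone site, that peak was weaker than at the other consensus regions. The median fold enrichment was 8.79, 8.19 and 9.12 in CdxKO and 10.3, 8.64 and 8.58 in T/BraKO, against 12.2, 11.6 and 12.1 and 15.1, 12.1 and 11.8 at the other regions. The difference was −3.54 ± 0.619 (SD, n = 6 lists, exact sign-flip permutation p = 0.0312, the smallest possible).

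Among the 20000 best peaks of the lists that had not chosen the sites, SOX2 and LEF1 were called at a minority of them. SOX2 was called at 12.9%, 11.8% and 9.64% of the lone sites in noCHIR (11.5% ± 1.68), at 14.0%, 14.6% and 14.6% in CdxKO (14.4% ± 0.340) and at 9.85%, 14.9% and 17.3% in T/BraKO (14.0% ± 3.80). The noCHIR and CdxKO values did not overlap (difference −2.97 points), with an exact permutation p of 0.1, the smallest possible, and 0.25 after adjustment over 5 tests. The T/BraKO values spanned both. T/BraKO SOX2 list 3 was the shortest of the 30 with 26940 peaks, and its value was the highest of its group. LEF1 was called at 10.7%, 9.94% and 10.6% of the lone sites in CdxKO (10.4% ± 0.417) and 5.72%, 6.40% and 6.96% in T/BraKO (6.36% ± 0.620). The 4.06-point difference between these non-overlapping groups again had an exact permutation p of 0.1 (0.25 adjusted). With all deposited peaks LEF1 met 46.1%, 50.4% and 40.4% of the lone sites in CdxKO and 42.7%, 45.8% and 28.0% in T/BraKO, so that the groups overlapped (difference 6.75 points, exact permutation p = 0.4). SOX2 then met 28.8% to 32.0% in noCHIR, 33.2% to 41.6% in CdxKO and 21.1% to 37.4% in T/BraKO. The noCHIR and CdxKO values still did not overlap (difference −8.00 points, exact permutation p = 0.1).

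In at least 2 of 3 lists, SOX2 was called at 326 sites in noCHIR (9.61%), 365 in CdxKO (10.8%) and 358 in T/BraKO (10.6%). Of the consensus regions without SOX2 in any WT list, 9.03%, 12.0% and 10.6% were called in the same way, so the lone sites lay near that background. LEF1 was called in at least 2 of 3 lists at 204 sites in CdxKO (6.01%, beside 6.94% of consensus regions without LEF1 in WT) and at 78 in T/BraKO (2.30%, beside 3.86%). That background again includes the lone sites. At the rest of it, the sites with SOX2 lacking LEF1, the shares were 8.08% and 5.78%. The lone sites with LEF1 in CdxKO and in T/BraKO held TCF/LEF letters in 72.1% and 70.5% of cases. Across all 15 lists of SOX2 and LEF1 outside the WT CHIR set, 1273 lone sites (37.5%) were called in none, as were 17.5% of all consensus regions, most of which had SOX2 or LEF1 in WT by definition.

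The best-ranked sites gave the range of these patterns. The top site was the promoter of Chrna9, a subunit of the nicotinic acetylcholine receptor, at chr5:65966618-65967245. Its β-catenin fold enrichment was 43.0, 50.7 and 47.8 in WT, 36.2, 32.6 and 13.5 in CdxKO and 96.9, 33.6 and 58.6 in T/BraKO, so each of the 9 lists called it, and SOX2 joined it in 3 of 3 T/BraKO lists. At the promoter of Znrf3, an E3 ligase that removes WNT receptors from the cell surface, the values were 23.6, 23.2 and 23.5 in WT, 16.3, 21.3 and 25.6 in CdxKO and 43.2, 31.7 and 30.8 in T/BraKO. The 3 T/BraKO values were the highest of the 9. An intron of Frmd4a led the mutant lists, with 25.1, 32.1 and 20.5 in WT, 42.3, 30.1 and 29.9 in CdxKO and 42.6, 43.0 and 32.2 in T/BraKO, and it was joined by SOX2 in all 9 lists of noCHIR and the mutants.

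Other top sites were called in only one mutant. The site 51017 bp from Gsk3b, which encodes the kinase that CHIR inhibits, had 25.2, 40.6 and 42.8 in WT and 41.0, 29.3 and 32.6 in CdxKO, and no T/BraKO list held a peak there, even among all deposited peaks. In an intron of Scara3, a scavenger receptor gene, WT had 26.0, 41.6 and 33.9 and CdxKO 45.4, 17.7 and 51.8, again with no peak in T/BraKO. The reverse was seen 197309 bp from Gm12830, with 14.3, 12.2 and 25.2 in WT, no peak in CdxKO and 18.2, 16.2 and 21.01 in T/BraKO. Arl2, Ddc, Rcc2 and Sh3bp4 were called in all 9 lists, with folds from 10.4 to 44.3. The 1045613 bp distant site of Ndufa4 was weakest in T/BraKO, with 24.4, 33.4 and 49.9 in WT, 34.5, 28.4 and 38.5 in CdxKO and 11.6, 8.64 and 10.3 in T/BraKO.

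Genes of the WNT pathway were nearest to a small share of the lone sites. Of a list of 62 WNT pathway and feedback genes, 31 were the nearest gene of 52 lone sites (1.53% of them, against 1.98% of consensus regions, 20 with TCF/LEF letters), 25 of which were called in at least 2 of 3 lists of both mutants, as were 36.8% of all lone sites and 55.9% of consensus regions. At the promoter of Wnt11, a WNT ligand, the folds were 13.5, 11.7 and 22.5 in WT, 5.69, 15.1 and 8.83 in CdxKO and 17.0, 14.4 and 15.5 in T/BraKO. A site 1391 bp upstream of Wnt3, the ligand that starts the primitive streak, had 8.72, 9.94 and 9.37 in WT, 5.28, 10.2 and 7.84 in CdxKO and 5.25, 6.19 and 4.88 in T/BraKO. Tle3, a Groucho co-repressor that opposes TCF activation, was the nearest gene of several lone sites. Far from Rspo3, a secreted amplifier of WNT signals, a site at 289959 bp had 14.5, 10.4 and 30.4 in WT, no peak in CdxKO and no peak, 4.94 and 4.79 in T/BraKO, none of them among the 20000 best. It was the best-ranked WT site called in 0 of 6 mutant lists, and Irs2, Vmn2r6, Ube2e2 and Trp63 followed.

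Mesoderm and primitive streak genes were nearest to 35 lone sites (1.03%, against 1.02% of consensus regions), 16 of them called in both mutants (36.8% of all lone sites were). The promoter of Mixl1, a homeobox gene of the primitive streak, had 8.26, 14.96 and 16.8 in WT, 10.9, 9.20 and 7.31 in CdxKO and 8.15, 6.85 and 15.03 in T/BraKO, with overlapping groups. At the promoter of Mesp2, which encodes a basic helix-loop-helix factor of presomitic mesoderm, the folds were 5.05, 12.2 and 11.0 in WT and 12.2, 5.93 and 9.66 in CdxKO, and no T/BraKO list held a peak. The promoter of its neighbour Mesp1, which held T-box and TCF/LEF letters, had peaks of 12.5, 6.08 and 13.0 in T/BraKO, beside 6.69, 18.7 and 6.17 in WT and 15.3, 8.04 and 8.94 in CdxKO. A site 6713 bp upstream of Eomes, a T-box factor of early mesendoderm, had 9.59, 10.4 and 5.05 in WT, 11.4, 9.05 and 8.86 in CdxKO and 21.9, 14.8 and 10.3 in T/BraKO. At 13481 bp from Foxa2, a forkhead factor of endoderm, WT had no peak, 14.8 and 24.5, CdxKO had 9.67, 6.15 and 16.4 and T/BraKO had none.

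The posterior list (Cdx, Hox and cofactor genes) gave 18 lone sites (0.531%, against 0.877% of consensus regions), of which 3 were called in both mutants, where 36.8% of all lone sites were. In an intron of Hoxc4 the folds were 13.4, 9.55 and 9.14 in WT and 13.8, 11.1 and 12.4 in T/BraKO, and no CdxKO list held a peak. The Hoxc8 site had 13.4, 7.38 and 8.09 in WT, none in CdxKO and 6.46, 5.76 and 12.3 in T/BraKO. Another site of the same cluster, 5576 bp from Hoxc11 and without CDX letters, had 6.02, 7.38 and 10.9 in WT, no peak, no peak and 4.92 in CdxKO and 11.6, no peak and 10.7 in T/BraKO. Near Hoxd3 the order was the other way, with 2 of 3 CdxKO and 0 of 3 T/BraKO lists calling a site with CDX letters. Neural genes were nearest to 17 sites (0.501%, against 0.867% of consensus regions) and pluripotency genes to 17 (0.501%, against 0.877%). Adhesion and junction genes were nearest to 15 sites (0.442%, against 0.413%), and ribosomal protein genes to 14 (0.413%, against 0.310%). Genes that respond to YAP, serum or AP-1 were nearest to 12 sites (0.354%, against 0.351%), and histone genes to 1 (0.0295%, against 0.114%). These counts were not tested, and each gene was taken only as the nearest one.

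Calls in the mutants divided by motif. This division was added after seeing the data and covered 5 motifs. Lone sites with CDX letters were called less often than those without in every CdxKO list, by 23.9, 24.1 and 20.7 points (−22.9 ± 1.91, SD, n = 3), and more often in every T/BraKO list, by 5.13, 0.702 and 6.80 points (4.21 ± 3.15). In CdxKO 33.0% of the sites with CDX letters were called on average, against 55.9% of those without. The difference between the mutants was −27.1 points with no overlap, and its exact permutation p was 0.1, the smallest possible (0.167 adjusted over 5 motifs). Of the 442 sites with CDX letters, 127 were lost in CdxKO alone, where 26.1% of the 1330 consensus regions with these letters were, and 25 in T/BraKO alone, where 3.76% were. Pik3r1, which encodes a regulatory subunit of phosphoinositide 3-kinase, gave 13.4, 11.3 and 15.3 in WT, no peak, no peak and 3.58 in CdxKO and 16.4, 10.7 and 29.6 in T/BraKO.

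T-box letters showed the opposite order. The 85 sites that held them were called more often in CdxKO, by 12.2, 15.5 and 20.8 points (16.1 ± 4.34), and less often in T/BraKO, by 17.0, 11.8 and 8.14 points (−12.3 ± 4.46). The difference of 28.4 points again had an exact permutation p of 0.1 (0.167 adjusted). Among them 21 were lost in T/BraKO alone, beside 18.7% of the 187 consensus regions with T-box letters, and 3 in CdxKO alone, beside 4.81%. In an intron of Hs6st2, a heparan sulfate sulfotransferase, WT had 9.44, 17.8 and 39.0, CdxKO 7.42, 6.03 and 13.3 and T/BraKO no peak. This site held TCF/LEF letters as well, 91 bp from the summit. A site near Shb, an adaptor protein gene, had 8.37, 18.3 and 25.2 in WT, 16.1, 10.3 and 19.8 in CdxKO and none in T/BraKO. An intron of Gm17571 had 8.03, 15.3 and 21.9, then 16.0, 8.19 and 5.46, then none.

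TCF/LEF letters went with more frequent calls in both mutants, by 12.1 ± 4.35 points in CdxKO and 10.1 ± 4.53 in T/BraKO, with overlapping values (difference 1.97 points, exact permutation p = 0.5). ZIC letters went with 6.40 ± 3.95 and 14.2 ± 2.30 points (exact permutation p of the difference 0.1), and SOX letters with −2.19 ± 3.99 and −2.10 ± 1.75 points (exact permutation p = 1). Neither pattern was particular to lone sites. In CdxKO, sites with CDX letters were called less often by 24.2 points at sites with SOX2 and LEF1, 26.3 at sites with SOX2 lacking LEF1 and 28.4 at sites with LEF1 lacking SOX2. In T/BraKO, sites with T-box letters were called less often by 14.5, 16.9 and 19.0 points in the same order of classes. In CdxKO the T-box values were 2.51, −7.82 and 14.5 points, so the excess at lone sites was not seen in every class. With TCF/LEF letters the other classes had 7.79, 7.83 and 11.6 points in CdxKO and 5.62, 10.1 and 10.5 in T/BraKO. The median WT rank was 10356 with and 11610 without TCF/LEF letters, 10320 and 11127 for T-box letters and 10994 and 11110 for CDX letters, and the part of rank in these differences was not tested.

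**Figure D4:**
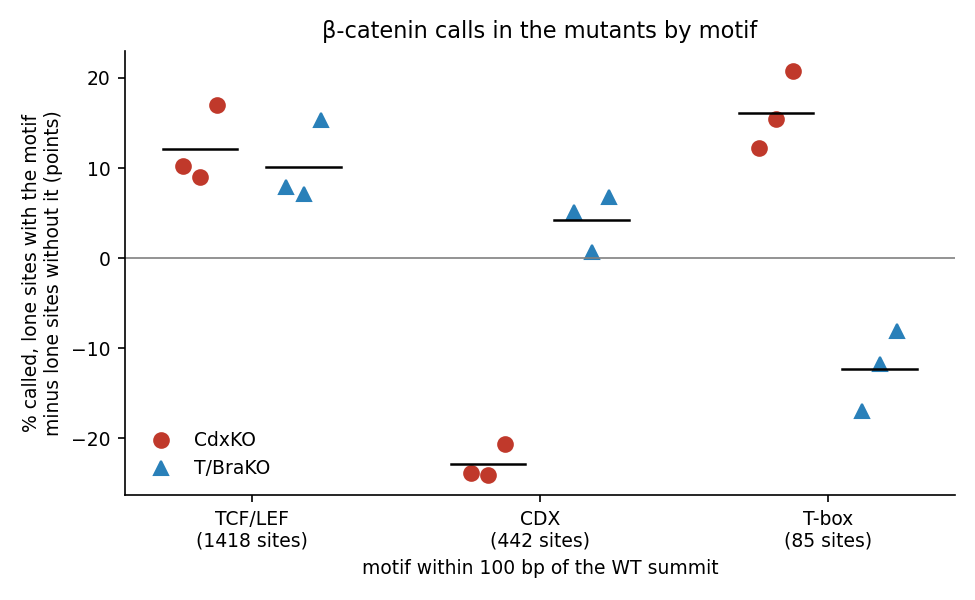
Percentage of lone sites with a motif that had a β-catenin peak, minus that of lone sites without it (y axis, points), for each mutant list, with bars at group means and the motif on the x axis. With CDX letters all 3 CdxKO lists lay below 0 (mean −22.9) and all 3 T/BraKO lists above it (4.21), and with T-box letters the order was the opposite (16.1 and −12.3).

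A minority of the lone sites shared sequence with one another. An exact run of 20 bases within 100 bp of the summit was shared with at least one other site of its class by 574 lone sites (16.9%), against 22.6%, 16.9% and 19.1% in the other classes. The 6 runs held by most lone sites defined 6 families, each with the sites that shared any 20 bases with a holder. These families were defined after seeing the data and held 258 sites. The 20 bases of the first family and of the second are shown with 30 bases on either side at 2 sites each, because these families held the most sites. Any TCF/LEF letters are in capitals in the site sequences.
Family 1, shared run: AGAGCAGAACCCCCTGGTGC
Family 1 near Fam107a, chr14:8285368-8285447, + strand: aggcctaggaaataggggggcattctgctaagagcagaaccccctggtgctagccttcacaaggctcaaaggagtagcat
Family 1 near Cdh8, chr8:98416930-98417009, + strand: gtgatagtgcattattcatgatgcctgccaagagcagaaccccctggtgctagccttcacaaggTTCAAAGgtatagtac
Family 2, shared run: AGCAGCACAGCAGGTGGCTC
Family 2 near Sult3a2, chr10:33806225-33806304, − strand: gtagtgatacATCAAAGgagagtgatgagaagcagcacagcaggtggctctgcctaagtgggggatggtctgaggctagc
Family 2 near Cdh20, chr1:103749811-103749890, + strand: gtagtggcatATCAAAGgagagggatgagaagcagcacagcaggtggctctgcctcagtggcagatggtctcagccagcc

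Family 1 had 85 lone sites on 20 chromosomes, 70 of them with a summit in a masked repeat, and its run occurred 299 times in the genome. In CdxKO 92.9%, 85.9% and 94.1% of its sites were called, and in T/BraKO 16.5%, 14.1% and 18.8%, a difference of 74.5 points with no overlap (exact permutation p = 0.1, the smallest possible). With all deposited peaks the values were 97.6%, 89.4% and 98.8% against 41.2%, 23.5% and 34.1%. The Gsk3b site described above belonged to it. Another 123 consensus regions that were not lone sites held the same run, and these were called at 100%, 98.4% and 98.4% in CdxKO and 62.6%, 56.1% and 69.9% in T/BraKO. No site of this family held T-box letters.

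Family 2 had 89 lone sites, 80 with TCF/LEF and 62 with ZIC letters, and was called at 92.1%, 83.1% and 88.8% in CdxKO and 56.2%, 46.1% and 62.9% in T/BraKO. The Ndufa4 site and a site of Sox17 belonged to it. Family 4 (27 sites) was called at 70.4%, 63.0% and 74.1% against 14.8%, 7.41% and 33.3%, and family 6 (32 sites) at 84.4%, 87.5% and 84.4% against 65.6%, 56.2% and 59.4%. Family 3 (22 sites, 19 with TCF/LEF, 20 with CDX and 16 with SOX letters) went the other way, with 72.7%, 63.6% and 68.2% in CdxKO and 81.8%, 72.7% and 77.3% in T/BraKO. Family 5 (9 sites) held tandem copies of the telomere hexamer and was called at 88.9%, 88.9% and 77.8% in CdxKO and 66.7%, 66.7% and 44.4% in T/BraKO.

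Taken over the 6 families, 87.6%, 80.6% and 86.0% of sites were called in CdxKO and 41.9%, 35.3% and 45.0% in T/BraKO. At the 3134 lone sites outside them the values were 52.5%, 49.6% and 48.7% against 59.1%, 51.5% and 60.9%, a difference of −6.90 points (exact permutation p = 0.2). The values of the 2 mutants overlapped outside the families and stood apart over the 6 families together. Reads from near-identical copies can be placed at more than one of them, and the part of read placement in these values was not tested.

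**Figure D5:**
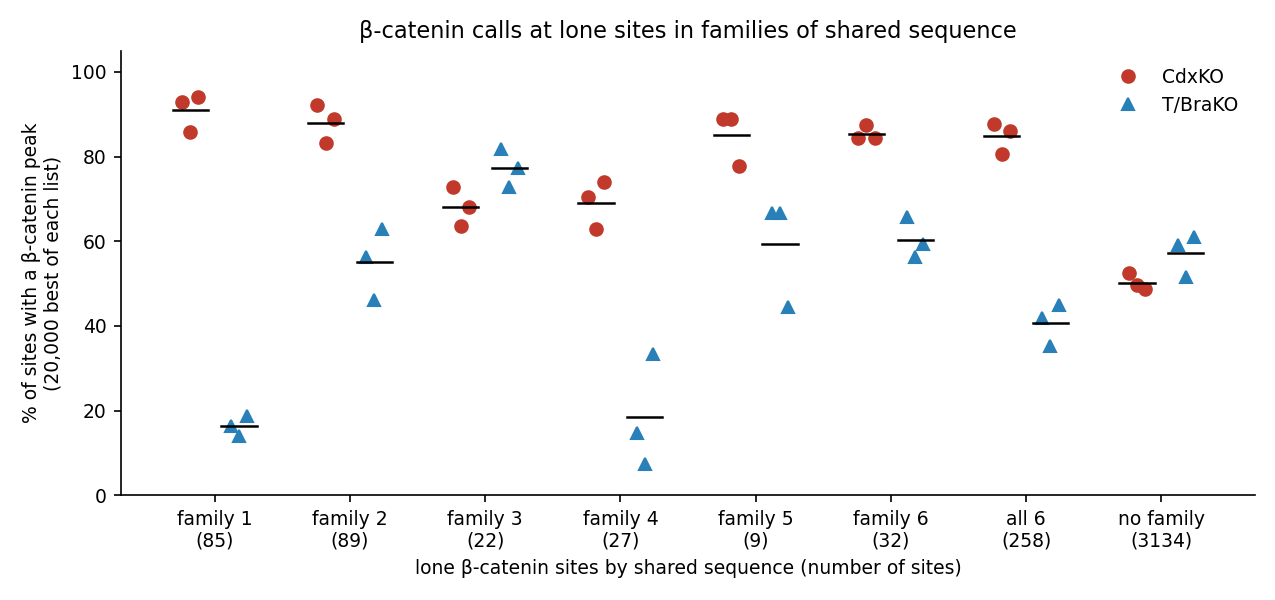
Percentage of lone sites with a β-catenin peak among the 20000 best (y axis) in each list, by family of shared sequence (x axis, number of sites in brackets), 1 point per mutant list and bars at group means. Family 1 was called at 85.9% to 94.1% in CdxKO and 14.1% to 18.8% in T/BraKO, while sites outside the families were called at 48.7% to 52.5% and 51.5% to 60.9%.

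The same rule was also applied within each mutant. In CdxKO 2887 of 10096 β-catenin consensus regions (28.6%) had no SOX2 or LEF1 peak in the CdxKO lists, and in T/BraKO 4279 of 12681 (33.7%). Of the 3392 WT lone sites, 787 (23.2%) overlapped a CdxKO lone region and 881 (26.0%) a T/BraKO one, and the overlapping regions made up 27.2% and 20.7% of the mutants' own. Overlap with the same class of the mutant was 62.5% and 54.9% for sites with SOX2 and LEF1, 34.8% and 48.4% for sites with SOX2 lacking LEF1 and 29.7% and 22.5% for sites with LEF1 lacking SOX2. Any β-catenin consensus region of CdxKO was met by 54.0% of the WT lone sites and 68.4% of all WT consensus regions, and any of T/BraKO by 57.6% and 73.7%. TCF/LEF letters were at 42.7% of the CdxKO and 44.0% of the T/BraKO lone regions, near the 41.8% in WT, and at 44.7%, 39.6% and 43.4% of the other β-catenin regions in the same order. CDX letters were at 7.93% in CdxKO, 14.0% in T/BraKO and 13.0% in WT, and T-box letters at 3.05%, 1.47% and 2.51%. The other β-catenin regions showed the like order, with CDX letters at 7.84%, 14.5% and 14.1%.

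Finally, single β-catenin peaks of the mutants without a SOX2 or LEF1 peak of their own genotype were set against those with one, in a test that used no WT list. Of 10 features, none passed 0.05 after Benjamini-Hochberg adjustment, while 4 reached the smallest unadjusted p that 6 lists allow (exact sign-flip permutation p = 0.0312, adjusted 0.0781). With that smallest p and 10 features, a feature cannot pass alone however large its difference, so not passing says little about size. The 4 features were TCF/LEF letters (24.7% against 38.9%), SOX letters (7.93% against 18.4%), GC content (49.1% against 50.6%) and repeat content (20.8% against 19.8%), each in the same direction in 6 of 6 lists. The peaks were divided by SOX2 and LEF1, whose families read the SOX and TCF/LEF letters. The contrasts in those letters are therefore not independent of the division. The TCF/LEF contrast is one of single peaks, and the regions called in at least 2 of 3 lists did not show it (above). Promoter share (13.6% against 15.6%) and CDX letters (12.5% against 11.1%) had adjusted exact permutation p values of 0.25 and 0.273. Lone peaks were 51.4% to 63.8% of the 20000 best in a list and were narrower, with a median width of 144 to 205 bp against 253 to 357 bp. They also ranked lower, with a median rank of 12555.5 to 13291.5 against 4665.5 to 5974. The part of rank and width in these contrasts was not tested.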

How the data were processed

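The series held 42 ChIP-seq samples. The 30 immunoprecipitation libraries, 3 biological replicates in each of 10 groups, each had a deposited narrowPeak list, and the 12 input samples were not analysed here. Per the labels' processing notes the authors called peaks with MACS2 on mm10. The study's methods name the nf-core/ChIP-seq pipeline, with alignment by BWA, and each library had its own list. The deposited lists give fold enrichment at the summit, a ratio over the local background, as well as −log10 p and −log10 q values. Which input served as control is not given in the sources used here, nor are read depths. The full lists held 26940 to 1008922 peaks over 5.31 to 165 Mb, and the −log10 q of the peak at rank 20000 was 3.26 to 14.1. The 20000 best of each list were therefore used, so that list length did not set the calls, although the evidence behind the last peak still differed.

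The members, gene lists, families and motif divisions were chosen with earlier results of these data known, so no list is independent evidence. Sites were named by the protein-coding gene with the nearest start in the GENCODE M21 basic annotation, and sequence came from the RefSeq GRCm38.p6 genome. Named sites were the best-ranked ones in WT, in the mutants, lost in both or either mutant, gaining SOX2 or LEF1, or without either in any full list, those nearest to a listed gene, and those just inside or outside the rule. Sites with CDX or T-box letters lost in 1 mutant, and the families, were named after seeing their values.

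Percentages of sites called were compared over libraries by exact two-sided permutation tests (3 against 3, smallest p 0.1) or exact sign-flip tests over 6 libraries (smallest p 0.03125), with Benjamini-Hochberg adjustment within each family of tests. The p values measure the spread between libraries of the biological triplicates, which the paper states came from separate experiments. Wilson 95% intervals cover counting error over sites only. Motifs were searched in 201-base windows. Alternatives were 10000 best peaks or full lists, 3 of 3 β-catenin lists, peak summits inside the region, motifs within 50 bp, promoters of 2500 bp, each library left out, and a replicate block. Computation used Python 3.11.15, numpy 2.4.6, pandas 2.3.3 and scipy 1.17.1, and the scripts were tested on simulated data.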

Additional observations from a re-analysis of the deposited data

Results flagged for a closer look

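Lone sites with CDX letters, set against lone sites without them, had differences of opposite sign in the 2 mutants. They were called less often in all 3 CdxKO lists (mean −22.9 points) and more often in all 3 T/BraKO lists (mean 4.21 points, 0.702 in 1 of them). The difference between the mutants did not pass its test, with an exact permutation p of 0.1, the smallest that 3 against 3 lists can give, and 0.167 after adjustment over 5 motifs. It was −24.6 and 2.93 points without the 6 families of shared sequence.

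Lone sites with T-box letters had the reverse signs, with 16.1 points in CdxKO and −12.3 points in T/BraKO, each in 3 of 3 lists. The exact permutation p of the difference was again 0.1 (0.167 adjusted), so this did not pass either. Without the families the values were 18.9 and −13.6 points. Both divisions were made after seeing the data.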

How the results depend on the processing

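Of 291 recomputed values for 24 results, 231 kept their direction and their side of the threshold, or their size where they had no test. The number of lone sites depended most on the lists that chose them: it was 5617 with the full lists (in which the 5617 have no SOX2 or LEF1 peak by construction), 1127 when 3 of 3 β-catenin lists were required, and 2170 to 3079 without 1 WT replicate, where 2 of 2 lists were required. Sites without SOX2 or LEF1 in any full list numbered 151 with the 10000 best, 61 with 3 of 3 lists and 283 to 440 without 1 WT replicate.

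The difference in retention from sites with SOX2 lacking LEF1 lost its call with the 10000 best (−10.5 points), with 3 of 3 lists (−9.74), in the 4 rank bins (−7.57, −10.2, −8.89 and −8.73) and between the width quartiles (−12.1). The bins, the width range and the removal of families were added after seeing the data. Leaving out 1 library gave −34.5 to −26.0 points against sites with SOX2 and LEF1, −17.5 to −12.2 against SOX2 lacking LEF1, −22.2 to −17.4 against LEF1 lacking SOX2, and a fold difference of −3.66 to −3.30. With 5 mutant lists the smallest exact permutation p is 0.0625, so each of these lost its call by construction, and without 1 WT replicate each retention difference kept it.

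Of the comparisons that had not passed, several turned direction. CdxKO against T/BraKO β-catenin calls became 2.78 points with 3 of 3 lists, and ranged from −5.84 to 3.64 with a replicate left out, the highest without WT replicate 1. The SOX2 difference between CdxKO and T/BraKO became −0.234 points without the families and ranged from −1.69 (without T/BraKO SOX2 replicate 1) to 2.03. With sites chosen by the full lists, noCHIR minus CdxKO became 0.196 points and noCHIR minus T/BraKO 0.214. With a library left out those ranged from −6.11 to −2.06 and from −5.41 to −0.938, LEF1 from 3.74 to 6.29 (6.75 points with overlapping groups in the full lists), the CDX difference from −28.9 to −25.8 and the T-box difference from 26.1 to 30.5. The TCF/LEF difference was −0.784 with 3 of 3 lists and ranged from −0.514 (without CdxKO replicate 3) to 4.58.

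For lone peaks in the mutants, the 10000 best of every list gave 1.34 points for promoters, 0.0574 for GC content, 0.0190 for CpG observed over expected and −0.572 for repeats. Set against the full SOX2 and LEF1 lists, the differences were −4.99 for promoters, −2.78 for GC content, −0.0387 for CpG, 2.85 for repeats, −18.4 for TCF/LEF, −7.07 for SOX and −0.127 for ETS letters (adjusted exact permutation p = 0.0446 for each), −0.167 for T-box and −0.916 for AP-1 letters. ETS letters ranged from −0.00271 (without T/BraKO β-catenin replicate 2) to 0.0524 with a library left out. The SOX and TCF/LEF letters are again those of the factors that divided the peaks. The causes were not tested.

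With the replicate number as a block, the differences were the same and their exact permutation p values were 0.5 (β-catenin, −3.03 points), 1 (SOX2, 0.403), 0.25 (−2.97), 0.5 (−2.56) and 0.25 (LEF1, 4.06), so that no call changed. Same-numbered replicates did not deviate together (correlations of −0.0419 to 0.0795), which gives no sign of pairing.

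The lists give no reads, so a site not called is one below the cut of its list and not one without β-catenin. Genotype, line and any clone effect cannot be told apart.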
